A study of Mus musculus with 8 samples.

Results

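Nephron progenitors are the mesenchymal cells that cap the tips of the ureteric bud in the developing kidney and give rise to every segment of the nephron. Their self-renewal depends on a small network of regulators, and 7 of these genes are described here: *Six2*, *Eya1*, *Cited1*, *Osr1*, *Sall1*, *Meox1* and *Crym*. They were chosen by name from 24063 genes in RNA-Seq tables of mouse tubuloids, which are tubular structures grown in Matrigel from kidney fragments. All 7 were found in the tables, as 11 RefSeq transcripts. The 4 control cultures (numbers 3, 7, 14 and 21) were compared with the 4 cultures that had received GDNF, the ureteric bud growth factor, at 20 ng/ml for 24 h (numbers 6, 12, 17 and 22). All 8 were collected at day 7 of culture, 6 days after the pulse, and all were kept in a medium that held other growth factors.

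All cultures of both groups carried the genotype Pkd2fl/fl Pax8rtTA TetOCre mTmG, that is, floxed alleles of the polycystin gene *Pkd2*, a doxycycline-dependent transactivator driven by the renal epithelial *Pax8* promoter, a Cre gene that responds to it and a dual membrane fluorescence reporter. The labels give the age of the kidneys as postnatal day 7 to 10 and the methods of the study start at day 4. The labels give no doxycycline for these cultures. They do not say whether a culture came from 1 animal or from several, so the p-values measure the spread between these cultures. The RNA was bulk RNA, in which fewer cells of a type and less RNA per cell cannot be told apart.

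Total transcript counts lay between 72991721 and 97490625 per culture. The 4 cultures control 3 and 7 and GDNF 6 and 12 contained *Xist* RNA from the inactive X chromosome, and the other 4, control 14 and 21 and GDNF 17 and 22, were high in RNA of 4 Y-linked genes. Control culture 3 and GDNF culture 6 contained some of both. Each group thus held 2 cultures of either kind, and results are given with the kind of culture where the members followed it. Markers of tubule epithelium were abundant, with a summed level of 449 to 3623 TPM (the authors' length-normalised transcript abundance), and markers of stroma were at 142 to 1164 TPM. None of the 7 epithelial or 12 stromal markers was at 0 in all cultures.

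As background, SIX2 is a homeodomain transcription factor that keeps progenitors from differentiating. EYA1 is its coactivator and phosphatase partner, and the zinc finger protein SALL1 acts with SIX2 on progenitor genes. OSR1 marks the intermediate mesoderm and works upstream of or with SIX2. CITED1, a transcriptional cofactor without a DNA-binding domain of its own, marks the least differentiated cap mesenchyme, and the homeobox gene *Meox1* and the thyroid hormone-binding protein gene *Crym* are further markers of that compartment. Progenitors of the mouse kidney are used up within days of birth.

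RefSeq start sites were found for *Six2*, *Cited1* and *Sall1*. Their 250 bases upstream of the first annotated start are shown because no promoter sequence was found for the other members. Capitals mark the TATA box searched as TATAAA, the box named CCAAT by its letters and the GC box searched as GGGCGG, as such or as the reverse complement. The windows are given 5′ to 3′ on the minus strand of GRCm38.p6, at chr17:85688255-85688504 for *Six2*, chrX:102252182-102252431 for *Cited1* and chr8:89044163-89044412 for *Sall1*.
Six2: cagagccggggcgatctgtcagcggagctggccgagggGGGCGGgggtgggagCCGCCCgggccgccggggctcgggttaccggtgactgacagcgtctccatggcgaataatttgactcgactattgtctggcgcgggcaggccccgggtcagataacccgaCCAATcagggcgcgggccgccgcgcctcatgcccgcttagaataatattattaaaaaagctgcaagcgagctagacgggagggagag
Cited1: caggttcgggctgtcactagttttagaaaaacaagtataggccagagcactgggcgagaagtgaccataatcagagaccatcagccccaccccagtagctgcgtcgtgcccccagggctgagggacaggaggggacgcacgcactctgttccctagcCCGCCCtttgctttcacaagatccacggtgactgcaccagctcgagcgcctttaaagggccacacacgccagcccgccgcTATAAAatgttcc
Sall1: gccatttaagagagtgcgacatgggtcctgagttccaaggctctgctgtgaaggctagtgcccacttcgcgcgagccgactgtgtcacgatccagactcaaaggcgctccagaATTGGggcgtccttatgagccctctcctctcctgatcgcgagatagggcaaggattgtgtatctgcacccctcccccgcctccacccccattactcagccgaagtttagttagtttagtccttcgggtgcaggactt
The *Six2* window held 1 CCAAT box that began 87 bases before the start and 2 GC boxes. The *Cited1* window held 1 TATA box that began 13 bases before the start and 1 GC box that began 93 bases before it. The *Sall1* window held 1 CCAAT box on the opposite strand, 137 bases before the start. Over all 32851 annotated promoters, windows of this length held TATAAA in 12.4%, CCAAT in 33.8% and GGGCGG in 32.7%. None of the 3 motifs was found in all 3 windows shown. *Cited1* and *Sall1* have further annotated starts, and the counts do not say which start was used. The windows of the further *Sall1* starts held 4 GC boxes and 1 GC box, and those of *Cited1* none. Each of the 3 genes thus had a GC box before at least 1 annotated start.

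The members covered a wide range of levels. Over the 8 cultures *Sall1* averaged 12.2 ± 5.46 TPM (SD), *Eya1* 2.53 ± 1.96, *Six2* 2.05 ± 1.28, *Osr1* 0.967 ± 0.761, *Cited1* 0.831 ± 0.495, *Meox1* 0.679 ± 0.298 and *Crym* 0.116 ± 0.102 TPM. *Sall1* was above *Eya1* in 8 of 8 cultures and *Meox1* was above *Crym* in 8 of 8. The neighbours in between did not differ beyond their spread: *Eya1* was above *Six2* in 4 of 8 cultures, *Six2* above *Osr1* in 5, *Osr1* above *Cited1* in 3 and *Cited1* above *Meox1* in 4. The ratio of the highest to the lowest culture was 16.4 for *Eya1*, 13.7 for *Osr1*, 7.54 for *Cited1*, 6.80 for *Six2*, 4.75 for *Meox1* and 3.83 for *Sall1*. *Crym*, with a count of 0 in GDNF culture 22, has no such ratio.

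The 2 listed transcripts of *Eya1* and the 4 of *Cited1* carried nearly the same counts in each culture. In GDNF culture 17, for example, NM_010164 and NM_001252192 of *Eya1* had 1405 and 1343 counts. Reads common to these transcripts were counted for each, so the tables do not separate them. The other 5 members have 1 transcript each. *Sall1* overlaps the annotated long noncoding RNA gene *Gm3134*, for which no row was found, and the strand handling of the counts is not given in the sources used here, so reads of that RNA could not be told apart from *Sall1*.

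**Figure D1:**
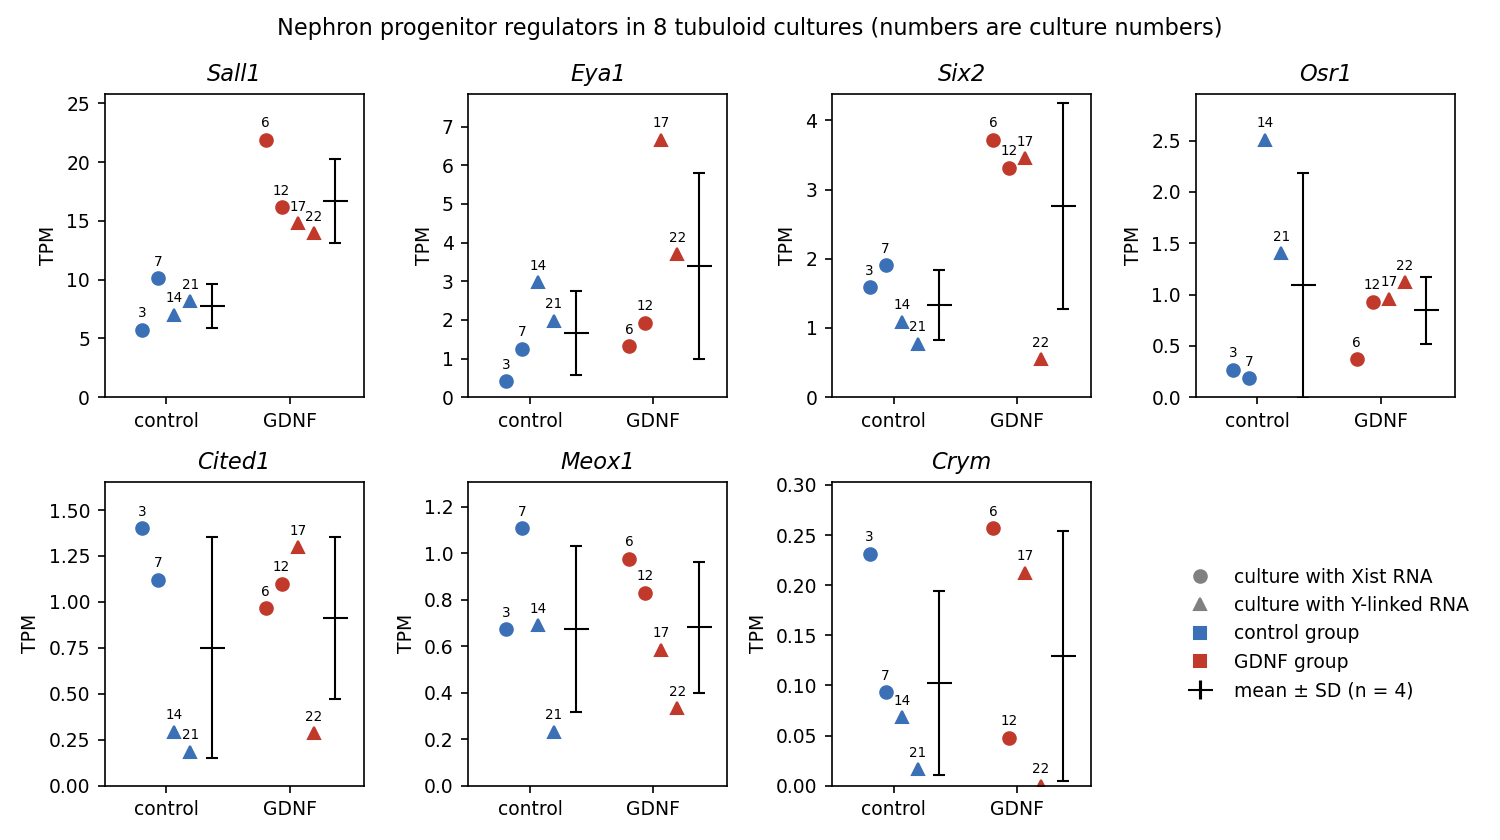
TPM (vertical axes, linear from 0, a different scale for each gene) of the 7 members in the 4 control and 4 GDNF cultures. Points are cultures with their numbers, circles those with *Xist* RNA and triangles those with Y-linked RNA, and bars are the mean ± SD (n = 4). The GDNF cultures of *Sall1*, from 13.9 to 21.9 TPM, lay above all controls, and GDNF culture 22 stood below the other GDNF cultures for *Six2*.

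*Sall1* was the member that was higher after the GDNF pulse. Its gene, on chromosome 8 from 89027242 to 89044162 (GRCm38), gave 5.72, 10.1, 6.99 and 8.16 TPM in control cultures 3, 7, 14 and 21. In GDNF cultures 6, 12, 17 and 22 it gave 21.9, 16.1, 14.8 and 13.9 TPM. Every GDNF culture was therefore above every control, and the lowest of them exceeded the highest control, culture 7, by less than the range of the controls. The means were 7.75 ± 1.87 and 16.7 ± 3.59 TPM (SD, n = 4 each), a ratio of 2.15, with p = 0.0286 in the exact two-sided permutation test over 70 assignments, the smallest p that 4 against 4 cultures allow. These values rested on 1863 to 5710 counts. Of the 7 members, 1 did not overlap between the groups in TPM. Among all genes with a mean above 0 TPM, 17.7% did not overlap, nearly all of them higher after GDNF (17.1%).

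TPM as deposited ran higher in the GDNF cultures for most genes. Among the 13698 genes that averaged 1 TPM or more, 78.6% were higher, with a median log2 ratio of 0.40, so a TPM difference is read against that shift. In counts scaled by TMM the median log2 fold change of all genes tested was 0.03. On that scale *Sall1* was at 26.7 ± 4.53 CPM (counts per 1000000, scaled by TMM) in controls and 44.4 ± 11.9 CPM after GDNF, again without overlap, as for 13.2% of the 16557 genes tested. The log2 fold change was 0.73 (SE 0.20, Benjamini-Hochberg adjusted p = 0.167, edgeR's quasi-likelihood test). DESeq2 gave *Sall1* a log2 fold change of 0.71 with an adjusted p of 0.0322. It called 6.11% of 20312 genes, of which most were lower after GDNF (0.871% of the 20312 were called higher). That total includes genes to which DESeq2 gave no adjusted p, among them all the other members. The share among genes with an adjusted p was therefore larger, and was not computed. *Sall1* was thus past the threshold of 0.05 in DESeq2 and short of it in edgeR. Within the cultures with *Xist* RNA the mean TPM of *Sall1* was 11.1 higher after GDNF and within those with Y-linked RNA 6.79 higher, without overlap in either. The exact permutation within kinds gave p = 0.0556, the smallest p its 36 assignments allow.

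Of the 6 members that passed the filter on low counts, 1 passed an unadjusted p of 0.05 in edgeR, which was *Sall1*. The background was 22.1% of all genes tested (9.25% higher and 12.9% lower after GDNF), so 1 of 6 was near it. The balance of directions depended on the scaling, with 1531 genes higher and 2134 lower under TMM and 3299 higher and 850 lower when counts were scaled by library size only. No gene of the 16557 passed the adjusted p of 0.05 in edgeR, with 3665 at an unadjusted p under 0.05 and 1242 past the adjusted p in DESeq2. *Crym* was the member left out by the filter.

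*Six2* was higher in 3 of the 4 GDNF cultures than in any control. The gene lies on chromosome 17 from 85662736 to 85688254. It was at 3.72, 3.32 and 3.46 TPM in GDNF cultures 6, 12 and 17 and at 0.547 TPM in culture 22, where 44 counts were found. Control cultures 3, 7, 14 and 21 were at 1.59, 1.91, 1.09 and 0.771 TPM. Culture 22 was the lowest of all 8 and the other 3 GDNF cultures were the highest. The groups overlapped for this reason, and the difference of means missed the threshold (exact permutation test, two-sided, p = 0.143). In edgeR the log2 fold change was 0.62 (SE 0.58, adjusted p = 0.540).

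Without GDNF culture 22 the groups no longer overlapped for *Six2* in TPM, while edgeR still gave no call after adjustment. The remaining 3 GDNF cultures averaged 3.50 ± 0.204 TPM (SD, n = 3) and lay above all 4 controls (exact permutation test over 35 assignments, two-sided, p = 0.0286, the smallest possible). As culture 22 alone made the groups overlap, leaving it out fixed this p in advance, so it adds nothing to the order of the values. The edgeR log2 fold change was then 0.97 (SE 0.40, adjusted p = 0.381). The members that passed the unadjusted p were then 2 of 7, *Sall1* and *Six2*, against 13.1% of all genes. With control culture 21 left out as well, the log2 fold change of *Six2* was 0.72 in edgeR (adjusted p = 0.386).

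*Eya1*, the partner of *Six2*, lies on chromosome 1 from 14168953 to 14311035. It was at 0.407, 1.25, 2.98 and 1.98 TPM in control cultures 3, 7, 14 and 21. In GDNF cultures 6, 12, 17 and 22 it was at 1.31, 1.92, 6.66 and 3.70 TPM. The groups overlapped, but the order of the cultures followed their kind: within the *Xist* cultures both GDNF values were above both controls, and the same was seen within the Y-linked cultures. The means were 1.65 ± 1.09 and 3.40 ± 2.40 TPM (SD, n = 4; exact permutation test, two-sided, p = 0.257). With permutations within kinds, the exact p was 0.0556, the smallest possible. The edgeR log2 fold change was 0.72 (SE 0.56, adjusted p = 0.460) and, with the kind of culture as a term, 0.67 with a smaller SE of 0.31 (adjusted p = 0.219).

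*Osr1*, on chromosome 12 from 9574442 to 9581500, was at 0.265, 0.183, 2.51 and 1.40 TPM in the controls in the same order. In the GDNF cultures it was at 0.371, 0.932, 0.959 and 1.12 TPM. The controls spanned a wide range, from the lowest to the highest of the 8 cultures, and the GDNF cultures lay inside it. The means of 1.09 ± 1.10 and 0.845 ± 0.327 TPM (SD, n = 4) could not be told apart (exact permutation test, two-sided, p = 0.743). The edgeR log2 fold change was -0.70 (SE 0.73, adjusted p = 0.590).

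*Cited1*, on chromosome X from 102247378 to 102252181, was at 1.40, 1.12, 0.294 and 0.186 TPM in the controls. In GDNF cultures 6, 12, 17 and 22 it was at 0.965, 1.10, 1.30 and 0.284 TPM. High and low cultures were found in both groups, and the 3 lowest were control 14, control 21 and GDNF 22. The means were 0.750 ± 0.602 and 0.911 ± 0.440 TPM (exact permutation test, two-sided, n = 4, p = 0.857), and the edgeR log2 fold change was -0.24 (SE 0.71, adjusted p = 0.866). The sign of the difference was opposite on these 2 scales.

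*Meox1*, on chromosome 11 from 101877510 to 101894354, was at 0.673, 1.11, 0.691 and 0.233 TPM in the controls and 0.977, 0.830, 0.585 and 0.332 TPM in the GDNF cultures. The means of 0.676 ± 0.357 and 0.681 ± 0.283 TPM were close (exact permutation test, two-sided, n = 4, p = 0.971). The edgeR log2 fold change was -0.40 (SE 0.55, adjusted p = 0.692), a sign that TPM did not share. *Crym*, on chromosome 7 from 120186380 to 120201989, was near the limit of detection. It had 18, 7, 5 and 1 counts in the controls and 16, 3, 13 and 0 in the GDNF cultures, with levels of at most 0.257 TPM, and its means of 0.102 ± 0.0918 and 0.129 ± 0.125 TPM (SD, n = 4) could not be told apart at this depth. The count of 0 in GDNF culture 22 allows a level of up to 0.0626 TPM (3 counts; counting error only).

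Control culture 21 and GDNF culture 22 were low for several members at once, a pattern that was seen in the values and not chosen beforehand. They were the 2 lowest of the 8 cultures for *Six2*, *Cited1*, *Meox1* and *Crym*, 4 of the 7 members. Of all 20312 genes with a mean above 0 TPM, 1.74% had these cultures as their 2 lowest, and 1.37% of the 9902 genes with a mean TPM within the range of the members did. For *Six2* both were at or below 0.771 TPM, while the other 6 cultures were at 1.09 TPM or more. For *Meox1* both were at or below 0.332 TPM, while the others were at 0.585 or more. For *Cited1* the margin was small, with 0.284 TPM in GDNF culture 22 against 0.294 TPM in control culture 14.

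The same pair of cultures was not lowest for the other 3 members, *Sall1*, *Eya1* and *Osr1*. Among the other lists, which held 14 paralogues, 9 progenitor partners, 13 early nephron genes and 12 stromal markers with a value, 0 genes of each had this pair as their 2 lowest. The exception was *Capn6*, a cap mesenchyme gene, at 1.08 TPM in both against at least 1.54 TPM elsewhere. In the opposite sense, *Eya3*, *Eya4* and *Traf1* had their 2 highest values in this pair, as did 4.08% of all genes. *Eya3* was at 7.23 and 8.79 TPM there. On the CPM scale the pair was lowest for *Six2*, *Cited1*, *Meox1* and *Capn6*, also for *Mycn* and *Tcf21*, and for 2.6% of genes tested. Both cultures had Y-linked RNA, GDNF culture 22 had the smallest library, and control culture 21 had the highest summed TPM of epithelial markers (3623 TPM, against 1063 TPM in GDNF culture 22). The part of these in the pattern was not tested.

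**Figure D2:**
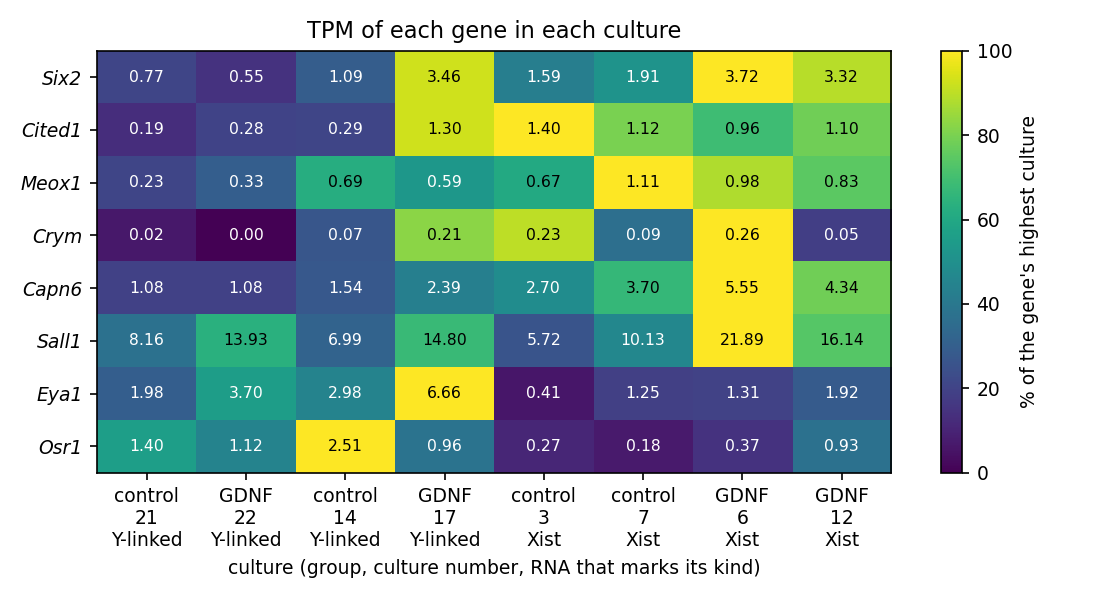
TPM of the 7 members and *Capn6* in each culture. Rows are genes and columns are cultures with their group, number and kind. Each cell prints the TPM, and its colour is the percentage of that gene's highest culture. *Six2*, *Cited1*, *Meox1*, *Crym* and *Capn6* are darkest in the first 2 columns, control 21 and GDNF 22, while *Eya1* and *Osr1* are darkest in cultures with *Xist* RNA.

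More members passed the test for the kind of culture than for GDNF. In an edgeR fit with group and kind as terms, 5 of 6 members passed an unadjusted p of 0.05 for the kind of culture, against 12.4% of all genes tested. None passed after adjustment, whereas 68 genes (0.411%) did. *Eya1* and *Osr1* were higher in the cultures with Y-linked RNA, while *Cited1*, *Meox1* and *Sall1* were higher in those with *Xist* RNA.

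*Eya1* was at 0.407 to 1.92 TPM in the 4 *Xist* cultures and at 1.98 to 6.66 TPM in the 4 Y-linked cultures, without overlap. The log2 fold change was 1.51 (SE 0.32, edgeR adjusted p = 0.0921). *Osr1* was at 0.183 to 0.932 TPM and at 0.959 to 2.51 TPM, again without overlap, with a log2 fold change of 1.69 (SE 0.59, edgeR adjusted p = 0.304). Both gave an exact two-sided permutation p of 0.0286 in TPM, the smallest possible, and 4.56% of all genes did not overlap between the kinds. Both thus had the same order of kinds, and the margins were narrow, with 1.92 against 1.98 TPM for *Eya1* and 0.932 against 0.959 TPM for *Osr1*.

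*Cited1* had a log2 fold change of -1.56 for Y-linked minus *Xist* cultures (SE 0.61, edgeR adjusted p = 0.340), *Meox1* one of -1.11 (SE 0.45, adjusted p = 0.360) and *Sall1* one of -0.40 (SE 0.16, adjusted p = 0.360). Their kinds overlapped in TPM. For *Cited1* the *Xist* cultures lay between 0.965 and 1.40 TPM and the Y-linked ones between 0.186 and 1.30 TPM, the latter value being that of GDNF culture 17. *Six2* went the same way without passing the test (log2 fold change -1.02, SE 0.49, edgeR adjusted p = 0.432).

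Some markers of other cells also differed between the kinds of culture. At an unadjusted edgeR p of 0.05, 3 of 12 stromal and 2 of 6 podocyte markers passed, beside 12.4% of all genes tested. So did 2 of 7 epithelial, 3 of 7 ureteric tip, 2 of 5 endothelial and 1 of 4 immune markers. The sums of the stromal and podocyte lists overlapped between the kinds. The summed podocyte markers were at 20.03 to 78.6 TPM in the *Xist* cultures and 48.9 to 117 TPM in the Y-linked ones, and the stromal markers at 142 to 794 and 426 to 1164 TPM. The stromal gene *Dcn*, for decorin, was at 3.75 to 9.45 TPM and 27.5 to 178 TPM, and its log2 difference of 3.21 passed the adjusted p (0.0430 in edgeR). In the opposite direction, the niche ligand gene *Wnt9b* (-2.14, edgeR adjusted p = 0.0213) and the ureteric tip marker *Calb1* (-2.81, edgeR adjusted p = 0.0334) passed it as lower in the Y-linked cultures. Across the 8 cultures Pearson r was taken between the log2 TPM of a member and the log2 of a summed TPM. For *Eya1* it was 0.82 with the stromal, 0.87 with the podocyte, 0.79 with the endothelial and 0.88 with the niche receptor sum. With the epithelial, ureteric tip and immune sums *Eya1* had -0.49, -0.24 and 0.27. With the stromal, podocyte, endothelial and niche receptor sums *Osr1* had 0.72, 0.67, 0.53 and 0.47. In the same order *Six2* had -0.11, -0.16, -0.17 and 0.13. With the epithelial, ureteric tip and immune sums *Osr1* had -0.33, -0.41 and -0.14, and *Six2* had -0.10, 0.46 and 0.72. These correlations are descriptions over 8 libraries that share their depth and composition. The part of these markers in the order of *Eya1* and *Osr1* was not tested.

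**Figure D3:**
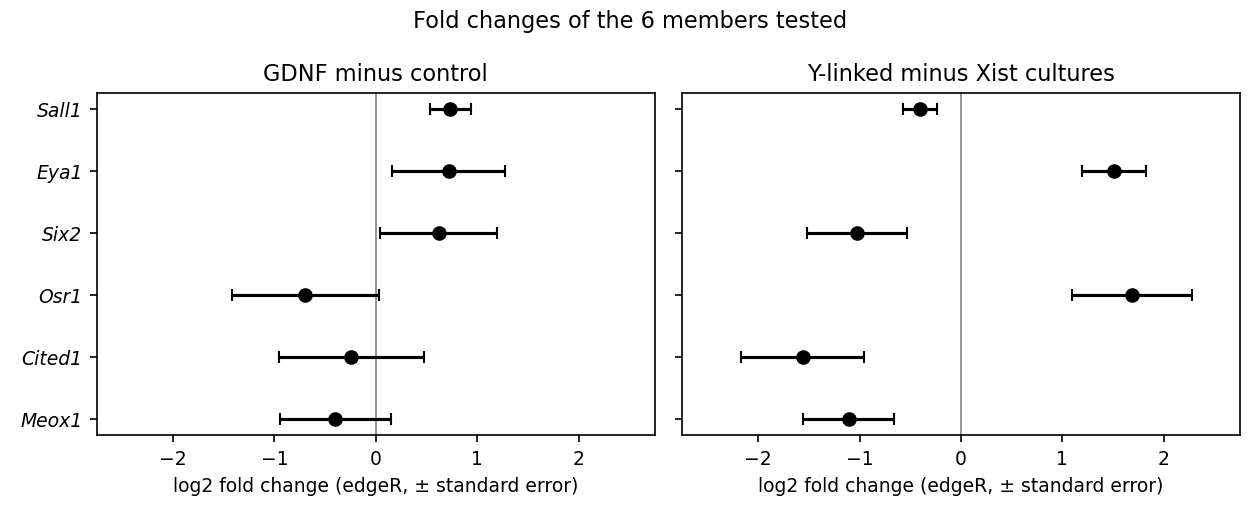
log2 fold changes (horizontal axes, points with ± 1 standard error from edgeR) of the 6 members tested, for GDNF minus control on the left and for Y-linked minus *Xist* cultures on the right. The grey line is 0. *Sall1* is the member farthest from 0 in units of its error on the left, at 0.73, and *Eya1* on the right, at 1.51.

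The effect of GDNF was compared between the kinds of culture by an interaction term. For *Cited1* it was 2.19 on the log2 scale (SE 0.96) and passed an unadjusted p of 0.05 in edgeR. Within the *Xist* cultures both GDNF values were below both controls, and within the Y-linked cultures GDNF culture 17 was above the controls. For *Osr1* it was -2.20 (SE 0.93) and also passed it, with GDNF above control in both *Xist* cultures and below in both Y-linked ones. Neither passed the adjusted p, and 0.568% of all genes passed an unadjusted p of 0.05. Each value rests on 2 cultures against 2.

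For each member, the genes with the most similar profile were found by Pearson r of log2 CPM over the 8 cultures among 13893 other genes (13894 for *Meox1*). For *Sall1* these were the predicted gene *Gm15401* (r = 0.99), the kinase gene *Wnk4* (0.98) and *Neurl1b* (0.97). *Wnk4*, which regulates salt transport in the distal tubule, had the 8 cultures in the same order as *Sall1*. For *Eya1* they were the efflux transporter gene *Abcb1a* (0.99), *Pag1* (0.98) and the polarity gene *Pard3b* (0.98). For *Six2* they were *Gapdhs* (0.95), the deacetylase gene *Sirt6* (0.93) and *Pgbd1* (0.92). For *Osr1* they were *Bard1* (0.98), *Ndrg4* (0.94) and the metalloproteinase gene *Mmp19* (0.90). For *Meox1* they were *Ing2* (0.97), *Zfp961* (0.97) and the chemokine gene *Ccl27a* (0.96). None of the genes most like a member was itself a member.

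The gene most like *Cited1* in log2 CPM was *Jpx* (r = 0.98, rho = 0.98), the long noncoding RNA gene that activates *Xist*. Both lie on the X chromosome, with *Jpx* from 103493558 to 103506425, 1241.4 kb from *Cited1*, next to *Xist* itself. *Jpx* varied far less than *Cited1*, from 0.669 to 1.39 TPM. In TPM *Jpx* was lowest in control culture 21, as *Cited1* was. It was highest in GDNF culture 17, while *Cited1* was highest in control culture 3 (1.40 TPM), where *Jpx* was at 0.999 TPM. The next were the potassium channel gene *Kcnj1* (0.97) and *Btbd2* (0.95). With 8 cultures and this many genes, values of r of this size are reached by some gene for each member, and they are given as descriptions.

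Pairs of members were compared in the same way, over 15 pairs of the 6 members tested. The highest was *Six2* with *Cited1*, with a Pearson r of 0.85 (exact permutation p = 0.0111) and a Spearman rho of 0.55 (exact permutation p = 0.171). It was 0.62 without the 2 cultures farthest from the median. *Cited1* with *Meox1* had an r of 0.81 (exact permutation p = 0.0187) and a rho of 0.76 (exact permutation p = 0.0368), with r at 0.31 without the 2 farthest cultures. *Six2* with *Meox1* had an r of 0.75 (exact permutation p = 0.0347) and a rho of 0.40 (exact permutation p = 0.327), and r fell to -0.15 without them, so that relation rested on those cultures. *Cited1* with *Osr1* had the lowest value, with r of -0.72 (exact permutation p = 0.0462), rho of -0.71 (exact permutation p = 0.0576) and r of -0.78 without the 2 farthest. *Eya1* with its partner *Six2* had an r of -0.29 (exact permutation p = 0.477) and a rho of -0.29 (exact permutation p = 0.501), with r of -0.16 without the 2 farthest. After Benjamini-Hochberg adjustment over the 15 pairs the smallest p was 0.140 for r and 0.208 for rho, so no pair passed.

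The genes around the members give their setting. Paralogues of the members did not pass the unadjusted edgeR test in either direction (0 of 12 tested, median log2 fold change 0.13, against 0.03 for all genes). The most abundant in this family were *Cited2*, at 27.1 ± 2.99 TPM without and 33.0 ± 2.95 TPM with GDNF (but 35.99 and 32.52 CPM, the opposite sign), and *Eya2*, at 15.4 ± 7.42 and 26.3 ± 9.89 TPM (SD, n = 4). *Eya2* was thus above *Eya1* in mean TPM in both groups. *Six6* was listed at 0 in all 8 cultures.

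Of the transcription factors that work with the members, 0 of 8 tested passed (median log2 fold change 0.19). *Pax2* averaged 2.17 ± 0.990 TPM without and 4.49 ± 2.07 TPM with the pulse, and *Wt1* was at 12.5 ± 7.57 and 24.6 ± 11.5 TPM (SD, n = 4). *Lin28b*, the regulator of developmental timing, was too low to be tested, at a mean of 0.0712 and 0.0298 TPM.

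Signals of the progenitor niche were examined as ligands and receptors. Of 6 ligands tested, *Bmp4* passed an unadjusted p of 0.05 (log2 fold change 0.65, SE 0.22, edgeR adjusted p = 0.168). The other 5 did not, and 3 of the 6 had a log2 fold change above 0. *Wnt9b*, the ureteric bud signal that acts on progenitors, had a log2 fold change of 1.14 with an SE of 0.71 (edgeR adjusted p = 0.359), and *Fgf9*, a self-renewal signal, 0.68 with an SE of 0.53. *Fgf20* and *Fgf8* were too low to be tested. Of 7 receptors, 3 passed as higher after GDNF, beside 9.25% of all genes tested. These were *Fgfr1* (log2 fold change 0.54), *Fgfr2* (0.63) and the GDNF co-receptor gene *Gfra1* (0.57), each past an unadjusted edgeR p of 0.05, with a smallest adjusted p of 0.183. *Ret*, the signalling receptor of GDNF, had a log2 fold change of 0.42 (SE 0.35, edgeR adjusted p = 0.483).

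Of 8 further cap mesenchyme genes tested, *Uncx* passed (log2 fold change 1.43, SE 0.62, edgeR adjusted p = 0.214), from 3.35 ± 0.675 TPM to 11.8 ± 12.5 TPM, with 30.6 TPM in GDNF culture 6 and 4.92 to 5.85 TPM in the other GDNF cultures. *Spock2* had a log2 fold change of 0.98 (SE 0.67) and *Dpf3* one of 0.97 (SE 0.48), and neither passed.

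Genes of the early nephron, which progenitors turn on as they differentiate, had the highest median log2 fold change of these lists (0.56 over 13 genes). *Lhx1* (log2 fold change 0.92), *Jag1* (0.65), *Dll1* (1.31) and *Cdh6* (0.91) passed an unadjusted edgeR p of 0.05 as higher, and *Ccnd1* (-1.31) passed as lower. In CPM *Dll1* was at 68.9 in GDNF culture 6, 15.8 to 29.9 in the other GDNF cultures and 10.0 to 16.7 in controls. *Lhx1* was at 20.3, 5.79 to 9.65 and 4.19 to 7.46 CPM in the same order. Of the 4 higher genes, *Jag1* alone did not overlap between the groups in CPM. *Ccnd1* was at 341 and 342 CPM in control cultures 3 and 21. Control cultures 7 and 14, at 65.0 and 56.3 CPM, were near the GDNF cultures, at 59.0 to 97.3 CPM. In all, 4 of 13 passed as higher and 1 as lower, beside 9.25% and 12.9% of all genes tested, and the smallest adjusted p was 0.167. *Wnt4*, the inducer of the mesenchymal to epithelial transition, was at 17.5 ± 3.51 and 28.7 ± 5.05 TPM (SD, n = 4), with a log2 fold change of 0.34 and an edgeR adjusted p of 0.242.

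**Figure D4:**
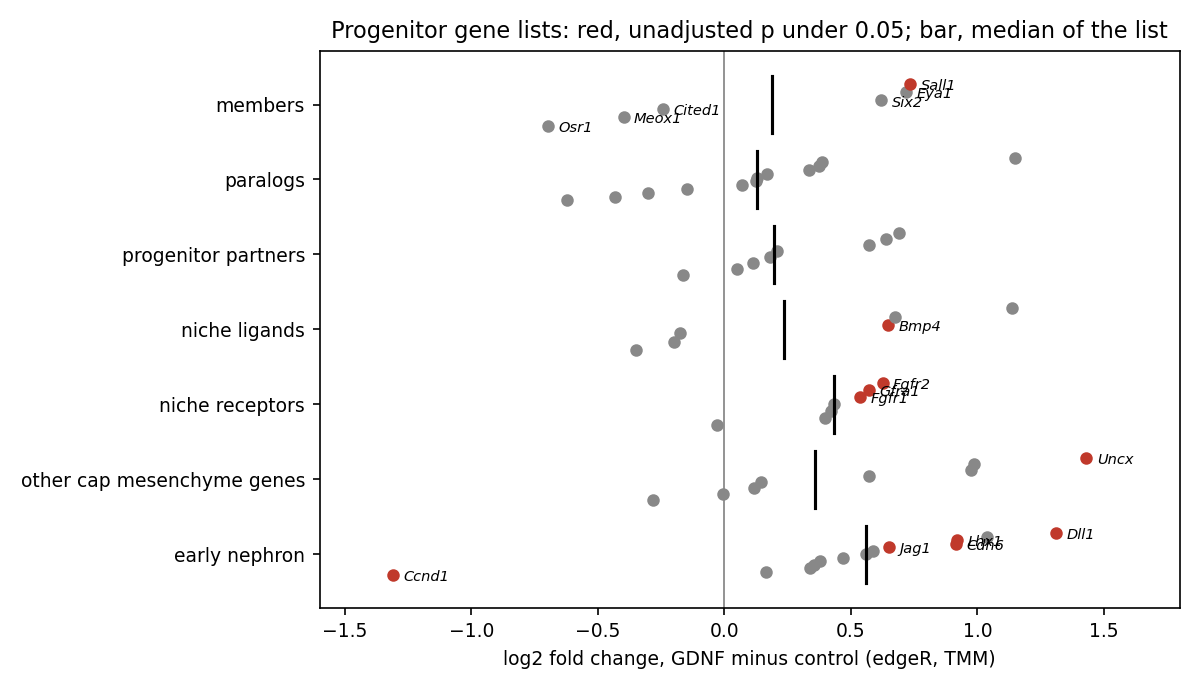
log2 fold changes for GDNF minus control (horizontal axis, edgeR with TMM) of the genes tested in each progenitor list (vertical axis). Each point is a gene, red where the unadjusted p was under 0.05, and black bars are the medians, which run from 0.13 for paralogues to 0.56 for early nephron genes. The members spread to both sides of 0, from -0.70 for *Osr1* to 0.73 for *Sall1*.

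Markers of other cell types were compared between the groups in the same fit. Of 12 stromal markers, *Tcf21* and *Lum* passed an unadjusted p of 0.05 as lower after GDNF and 0 passed as higher, although 4 of the 12 had a log2 fold change above 0. Of 7 epithelial markers, *Krt8* passed as lower, and of 5 endothelial markers *Tek* and *Flt1* passed as higher, beside 12.9% lower and 9.25% higher over all genes tested. Only these 2 of the 5 endothelial markers had a log2 fold change above 0 (list median -0.15), and *Tek* was at most 0.258 TPM. *Krt8* was at 1041 and 1315 CPM in control cultures 3 and 21 and at 250 and 112 CPM in control cultures 7 and 14. After GDNF it was at 216 to 285 CPM. None of the 7 ureteric tip, 6 podocyte or 4 immune markers tested passed at that threshold, and none in any list passed the adjusted p. The summed epithelial markers were at 449 to 3623 TPM in controls and 1018 to 1463 TPM after GDNF, and the stromal ones at 142 to 1164 and 173 to 949 TPM. Their part in the difference of *Sall1* was not tested. In log2 TPM over 8 cultures as above, the r of *Sall1* was 0.07 with the stromal, -0.14 with the epithelial and 0.12 with the podocyte sum. It was 0.77 with the ureteric tip, 0.60 with the endothelial and 0.43 with the immune sum.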

How the data were processed

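RNA-Seq of 8 tubuloid cultures, 4 controls and 4 with a GDNF pulse, was analysed from 1 table per culture of 33068 RefSeq transcripts (24063 genes). Reads were 75 bp. The paper states that 2 flow cell lanes were used with 4 samples in each. It does not say which culture ran in which lane, so the part of lane in any difference was not tested. The submitters' processing notes name STAR, featureCounts and DESeq2 with mm10/GRCm38; versions and strand handling are not given in the sources used here. The deposited counts are whole reads per transcript and were not normalized. FPKM, which the authors derived from them by transcript length and library total, served only to obtain lengths. The deposited TPM values were scaled by the authors to 1000000 per culture over all listed transcripts.

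The members and gene lists were chosen with earlier results of these data known. Summed counts per symbol went into edgeR 4.0.16 under R 4.3.3 (filter by filterByExpr, TMM, quasi-likelihood F test, Benjamini-Hochberg over 16557 genes, threshold 0.05). The SE is the absolute log2 fold change divided by the square root of F. TPM was taken from the transcript whose mean count was highest and compared by exact permutation. Culture kind was called from *Xist* against *Ddx3y*, *Eif2s3y*, *Kdm5d* and *Uty*. Correlations between genes used log2 CPM with a prior count of 1. Correlations with list sums used log2 TPM of the gene and of the sum. All members were named, and 1 listed gene is not reported here by itself. From the other lists, genes were named by role or when they passed an unadjusted p of 0.05, and the 3 genes with the highest r were named per member among those with a mean of at least 1 CPM. *Capn6*, *Eya3*, *Eya4*, *Traf1*, *Mycn*, *Tcf21*, *Calb1* and *Dcn* were also named after their values were seen. Alternatives were limma-voom (limma 3.58.1, with sample quality weights), DESeq2 1.42.0, other size factors, no filter, 1 transcript per gene, kind of culture as a term, CPM in place of TPM, TPM summed or rescaled, log2(TPM + 1), log2(TPM + 0.1) and leaving out each culture. Those chosen after seeing the data were values and permutations within kinds and leaving out control 21 with GDNF 22. The fits were tested on simulated data. Promoters and coordinates are from RefSeq on GRCm38.p6, which matched 3 of 7 members for promoters. Other steps ran in Python 3.11.15 (SciPy 1.17.1, pandas 2.3.3, NumPy 2.4.6), with plots by matplotlib 3.10.9.

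At 72991721 to 97490625 counts per culture, edgeR's common dispersion over all genes tested, as a coefficient of variation, was 36.8%. It describes the spread between cultures over these genes together and not that of a single member. *Crym* had the fewest counts of the members, at most 18 per culture, and so the largest relative counting error.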

Additional observations from a re-analysis of the deposited data

Results flagged for a closer look

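*Six2* in GDNF culture 22 was far from the other cultures of its group, at 0.547 TPM against 3.32 to 3.72 TPM in cultures 6, 12 and 17. Its gap to the nearest culture was 0.874 of the range of the group. Of 26 groups of 4 cultures examined, this was the 1 that stood out by Dixon's test, which marks about 1 in 20 groups by chance.

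The GDNF effect on *Cited1* differed between kinds of culture by 2.19 on the log2 scale (Y-linked minus *Xist*; interaction term in edgeR), and that on *Osr1* by -2.20. Both passed an unadjusted p of 0.05. These are 2 of 6 members examined, beside 0.568% of all genes tested, and neither passed adjustment over all genes in edgeR.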

How the results depend on the processing

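No paired analysis was possible because the groups share no culture numbers. *Sall1* kept its direction under every alternative tried; leaving out each culture in turn, its log2 fold change was 0.53 to 0.86 and its TPM difference 7.20 to 9.86. It lost its call in TPM with permutations within kinds (exact p = 0.0556) and without control 21 and GDNF 22 (exact p = 0.1), where neither design can go lower. The number of genes past the adjusted p was 0 with each culture left out in edgeR and 1242 in DESeq2; the cause was not tested. The members past an unadjusted p were 1 to 2 with each culture left out, as were those without overlap in TPM, and 2 did not overlap without control 21 and GDNF 22. The second was *Six2* in each case: without GDNF 22 its TPM difference was 2.16. The share of all genes without overlap was not computed with cultures left out.

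Direction changed only for members with no call; the cause was not tested. For *Cited1* the log2 fold change was 0.20 in limma-voom, 0.051 by library size only, 0.26 with the kind as a term, 0.47 without control 3 and 0.06 without GDNF 22, and its difference was -0.373 CPM with TMM, -0.0270 TPM without control 21 and -0.228 TPM within the *Xist* cultures. For *Osr1* the log2 fold change was 0.30 in limma-voom and 0.12 without control 14, and its difference 0.16 as log2(TPM + 0.1), 0.229 TPM without control 14 and 0.427 TPM within the *Xist* cultures. For *Meox1* the difference was -0.245 CPM with TMM, -0.104 CPM by library size only, -0.143, -0.0935 and -0.0447 TPM without control 21, GDNF 6 and GDNF 12, -0.0264 TPM without control 21 and GDNF 22, and -0.00330 TPM within the Y-linked cultures. For *Crym* the log2 fold change was -0.19 without the filter, 0.10 without GDNF 12 and 0.23 without GDNF 22, and its TPM difference was -0.00184, -0.0157 and -0.000910 without control 21, GDNF 6 and GDNF 17 and -0.0102 within the *Xist* cultures. With cultures left out in turn, the lowest log2 fold change was -0.62 for *Cited1*, -1.05 for *Osr1* and -0.59 for *Crym* (which failed the filter without control 3, GDNF 6 or GDNF 17), the highest TPM difference was 0.378 for *Cited1*, 0.149 for *Meox1* and 0.0699 for *Crym*, and the lowest was -0.546 for *Osr1*. With at most 18 counts per culture, depth limits *Crym*.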
